A study of Drosophila melanogaster with 31 samples.

Results

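The cytoplasmic ribosomal protein genes encode the structural proteins of the ribosome. They were taken as the protein-coding genes whose FlyBase symbol begins with RpL (large subunit) or RpS (small subunit), plus sta, which encodes a small subunit protein, without symbols ending in -like. This rule gave 88 genes (50 large, 38 small) and left out 5 genes ending in -like. The count table of 17559 genes held 83 of the 88 (47 large, 36 small). RpL19, RpL27A, RpL31, RpS10b and RpS12 did not match an identifier of the table and are named only.

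The study sequenced RNA of single clones of about 50 cells, cut by laser from the eye imaginal disc of Drosophila larvae, the epithelium that becomes the adult eye. It asked what the transcription factor FoxO does in cells that lack Tsc1, an inhibitor of TORC1, when food is scarce. The 8 groups were Tsc1[Q87X] foxoRi under NR (4 libraries), Tsc1[Q87X] under NR (4), foxoRi under NR (3, of which 2 were used), wt under NR (4), Tsc1[Q87X] foxoRi on normal food (4), Tsc1[Q87X] on normal food (4), foxoRi on normal food (4) and wt on normal food (4, of which 3 were used). In this text Tsc1 stands for Tsc1[Q87X], a nonsense allele in homozygous clones on FRT82 chromosomes, and wt for the isogenic FRT82 control. Nutrient restriction (NR) was food with the yeast reduced to 10%, and NF is normal food. The NR larvae were dissected at a later age than the NF larvae. All clones were induced by a heat shock of 11 min at 37°C at 36 hr after egg laying. RNAi against foxo was switched on in the clones by a shift to 30°C for 12 hr before dissection, which inactivates Gal80ts, and all clones without RNAi stayed at 25°C. Knockdown and temperature therefore cannot be told apart, and each library was 1 clone from larvae not selected for sex. The labels do not say which clones came from the same larva, so p-values measure only the spread between these libraries.

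The ribosome has a large and a small subunit, and each protein is present in a fixed number per ribosome, so a cell needs their mRNAs in balance. In flies, losing a copy of many of these genes gives the Minute phenotype of slow growth and short bristles. In mammals these mRNAs start with a pyrimidine tract through which TORC1 and Larp1 control their translation, and S6 kinase, a target of TORC1, phosphorylates RpS6. RNA-seq of total RNA counts the mRNAs and does not measure their translation.

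Total counts per library were 6877877 to 13316136 in the 29 libraries used, with 9107 to 14950 genes detected. The 2 libraries not used were wt NF replicate 4 and foxoRi NR replicate 3, with 6450 and 4468 genes detected. Eye progenitor markers were present in every group, all 8 of 8, with a summed level of 982 to 2665 CPM per library (counts over the TMM-scaled library size, the usual CPM scale). Fat body markers reached 1322 CPM in Tsc1 foxoRi NR replicate 3 and 493.3 CPM in Tsc1 NR replicate 3, and their part in the comparisons of these groups was not tested. The foxo mRNA did not follow its label: over the 4 knockdown pairs it differed by a log2 fold change of 0.06 ± 0.15 (SE, edgeR adjusted p = 1.00). It was at 29.3 to 48.8 CPM in foxoRi NF, against 31.8 to 70.3 CPM in wt NF. The study set the length of the shift by nuclear FoxO staining, a measure of the protein that is not part of these counts, and the mRNA alone does not settle whether the knockdown worked. The clones are called libraries labelled foxoRi, and each direction drawn from them rests on that label and on the temperature. Tsc1 mRNA does not check its label, since the allele is a nonsense mutation (pooled log2 fold change −0.01 ± 0.16).

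The ribosomal protein genes were among the most abundant mRNAs of the clones and were held close to each other. Of the 83 measured genes, 79 (45 large, 34 small) passed the filter on low counts and were tested together with 13524 genes in all. The mean level of these 79 had a median of 495 CPM, against 4.38 CPM over all tested genes, and 13 of them were among the 100 genes of highest level. Their summed level was 27773.6 to 52913.6 CPM per library, a 1.91-fold range, which was 8.71% to 15.3% of the protein-coding counts. The 4 genes not tested were RpL10Aa, RpL37-2, RpS10a and RpS28a, with 39, 75, 28 and 21 counts over the 29 libraries.

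The 2 subunits kept a near constant ratio. The small subunit sum divided by the large subunit sum was 0.713 ± 0.0284 (SD, n = 29 libraries) and stayed between 0.625 and 0.757. Over the 29 libraries the 2 sums had a Pearson r of 0.961, a description over libraries that share their depth and scaling. The large subunit sum averaged 21623 ± 4805 CPM in Tsc1 foxoRi NR, 24241 ± 980 in Tsc1 NR, 21330 ± 277 in foxoRi NR and 24178 ± 2916 in wt NR (SD, n = 4, 4, 2 and 4). On normal food it averaged 22146 ± 2091 CPM in Tsc1 foxoRi NF, 23533 ± 2969 in Tsc1 NF, 19637 ± 1977 in foxoRi NF and 28064 ± 2716 in wt NF (n = 4, 4, 4 and 3). The highest group mean was that of wt NF and the lowest that of foxoRi NF. Their libraries did not overlap. Neighbouring groups in the order of the means overlapped, except that the highest Tsc1 NR library, at 25322.4 CPM, was below the lowest wt NF library used, at 25898.6 CPM. The small subunit sum averaged 14515 ± 1632 CPM in foxoRi NF and 20008 ± 1554 CPM in wt NF. The lowest ratio was in Tsc1 foxoRi NR replicate 1, the library in which RpL41 stood far above the others. Within groups, the SD of log2 CPM had a median of 0.252 over the tested ribosomal protein genes, against 0.336 over the 748 other genes with at least 100 CPM. After the median of the ribosomal protein genes of each library was subtracted it was 0.187, so part of the spread was shared within the family. This did not hold for every gene: the SD rose from 0.384 to 0.423 for RpL38 and from 0.248 to 0.294 for RpS3A.

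**Figure D1:**
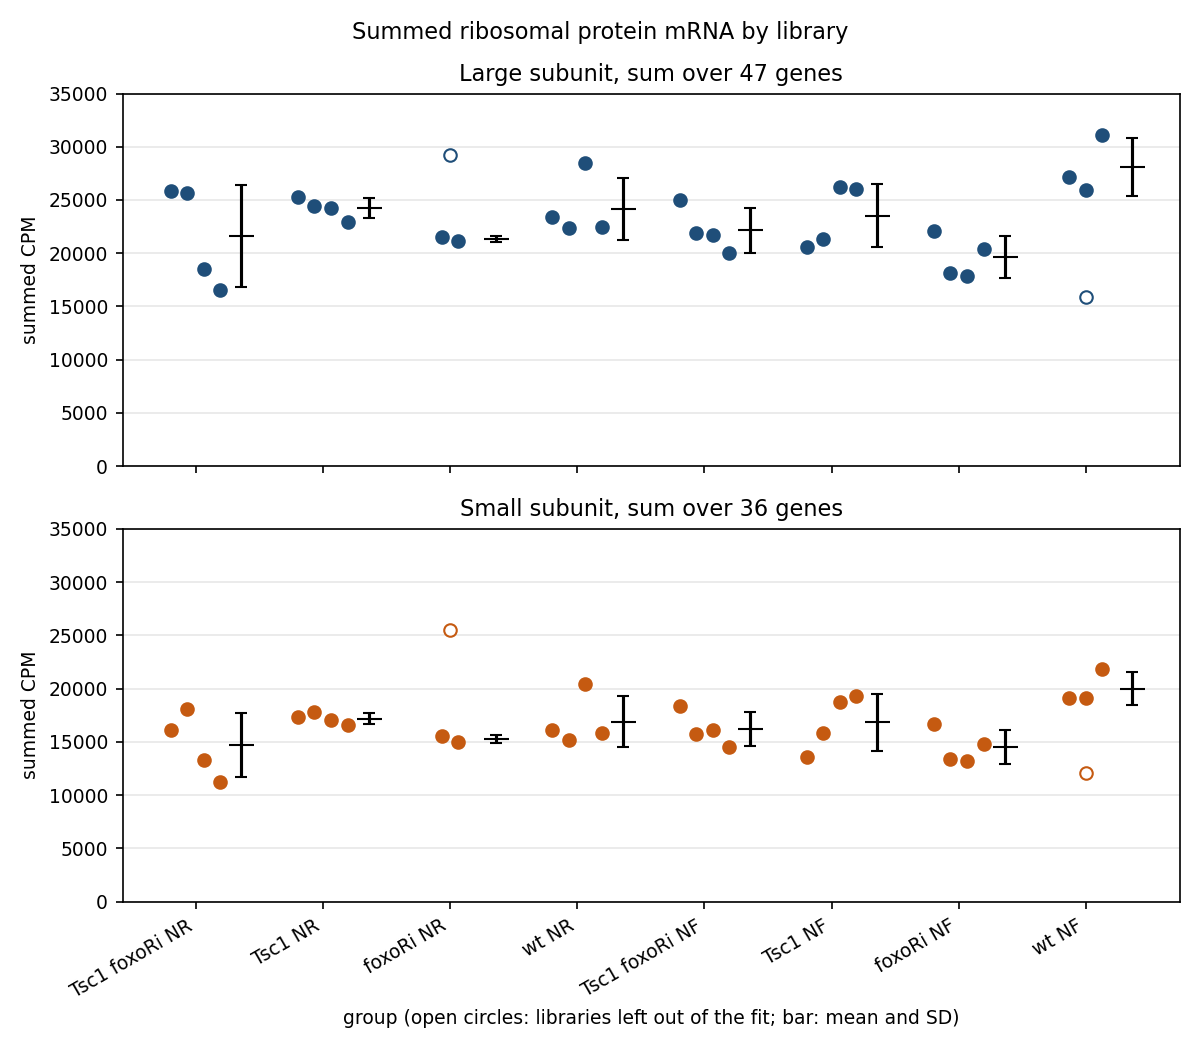
Summed level of the large (blue) and small (orange) subunit genes in each library, in CPM, by group. Filled points are the 29 libraries used, open points the 2 not used, and bars are the mean and SD of the libraries used. The 3 wt NF libraries used lie at 25898.6 to 31112.1 CPM for the large subunit, above all 4 libraries labelled foxoRi NF, at 17889.2 to 22080.6 CPM.

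Per kilobase of exon the levels were similar across the complex. The tested genes had a median of 503 CPM per kb (492 for the large, 523 for the small subunit), and 69 of 79 were within 2-fold of it. The highest was RpL41, at 4291 CPM per kb, whose protein is the shortest of the ribosome. RpLP2 of the stalk, the flexible arm of the large subunit that recruits elongation factors, came next with 1390 CPM per kb, followed by RpL14 with 1086 and RpS18 with 1033 CPM per kb. The lowest tested genes were copies of other members: RpS5b (0.663 CPM per kb), RpS19b (0.992), RpS15Ab (89.8), RpL34a (97.6) and RpS14b (193). RpL41, RpL34a and RpS15Ab also had the largest spread over libraries, with an SD of log2 CPM of 0.529, 0.467 and 0.420.

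**Figure D2:**
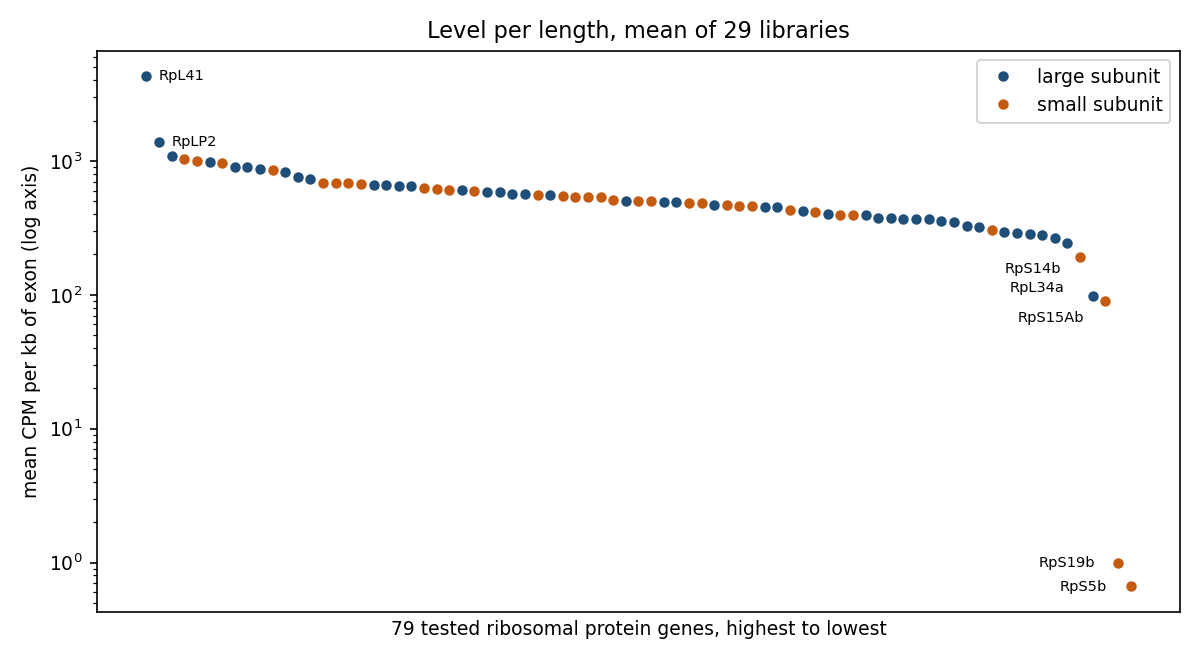
Mean level per length of each tested ribosomal protein gene over 29 libraries, in CPM per kilobase of merged exons on a log axis, ordered and coloured by subunit. RpL41 is highest at 4291, most genes lie within 2-fold of the median of 503, and the copies RpS5b and RpS19b lie below 1.

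Of the 8 pairs of paralogs, 3 used both copies and 5 almost only the major copy. RpL34a gave 19.9% of the counts of RpL34a and RpL34b together (10.1% to 37.6% per library), RpS14b 21.3% of its pair with RpS14a, and RpS15Ab 12.99% of its pair with RpS15Aa. In the other pairs the minor copy gave 0.0192% (RpL10Aa beside RpL10Ab), 0.0440% (RpL37-2 beside RpL37-1), 0.116% (RpS5b beside RpS5a), 0.115% (RpS19b beside RpS19a) and 0.0111% (RpS28a beside RpS28b). RpS5b and RpS19b are known in flies for their expression in the germline. Counts of RpS14b and RpS15Ab were not whole in 24 and 29 of the 31 libraries, which shows that reads were divided between features, so the split of these pairs is uncertain.

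Many of these genes also carry small RNA genes. A snoRNA, scaRNA or snRNA on the same strand lay inside 27 of the 83 measured genes (32.5%), against 0.636% of all protein-coding genes. There were 73 such small RNAs, with 14 in RpS5a and 7 in RpS7. The exons of 26 of the 83 overlapped an exon of another gene, and the counting's use of strand is not given in the sources used here. The median exonic length was 903 bases, against 1725 bases over all protein-coding genes, and the genes were spread over the chromosomes (14 on X, 16 on 2L, 17 on 2R, 13 on 3L, 22 on 3R and 1 on 4).

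A gene was called where its log2 fold change was beyond 0.8 in either direction and edgeR's quasi-likelihood test gave an adjusted p under 0.2, the limits the study set. No ribosomal protein gene was called in any of the 12 comparisons of 2 groups or the 3 pooled ones. The results are therefore given by counts at an unadjusted p under 0.05 and by medians as well, each beside the same value over all tested genes. Members share part of their spread over libraries, so a count of them is not a count of independent observations. All tested genes had a lower median level, 4.38 CPM against 495 CPM for the members. Shares over genes of similar level are not given here.

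The medians of the family lay farthest from 0 between libraries labelled foxoRi and wt clones on normal food, at about the same value in both subunits. The median log2 fold change was −0.52 for the large and −0.49 for the small subunit, against 0.02 over all tested genes, and 78 of 79 were below 0. No single gene was called (background 0.0813% of all tested genes). At an unadjusted p under 0.05, 51 of 79 were lower (29 large, 22 small) and none higher, where 9.2% of all genes passed in either direction and 5.41% were lower. In 59 of 79 (74.7%) every foxoRi NF library was below every wt NF library used, against 3.72% of all tested genes. DESeq2 called none, but gave 12 genes, all lower, an adjusted p under 0.2, and 42 an unadjusted p under 0.05.

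The smallest adjusted p was that of RpL30 (FBgn0086710, chr2L:19008031-19009306 in BDGP6.54), a large subunit protein. It had 260.1, 148.2, 201.0 and 206.9 CPM in foxoRi NF, against 348.5, 360.9 and 379.7 CPM in wt NF. The groups did not overlap, and the log2 fold change was −0.83 ± 0.20 (SE, edgeR adjusted p = 0.220). Its exons overlap those of CG31793 on the other strand. RpLP1 (FBgn0002593, chr2L:419952-420864), an acidic stalk protein, had 496.5, 449.7, 386.0 and 465.6 CPM in foxoRi NF, against 763.2, 761.9 and 712.9 CPM in wt NF. Every foxoRi NF value was below every wt NF value, with a log2 fold change of −0.73 ± 0.18 (adjusted p = 0.227). The other stalk proteins did not follow to the same extent in their values, with −0.44 for RpLP2 and −0.25 for RpLP0, and the differences between these genes were not tested.

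RpL41 (chr2R:24903416-24903935) had the lowest fold change of the genes with more than a few counts. It was at 1022.8, 809.6, 851.4 and 960.0 CPM in foxoRi NF, against 1934.2, 1285.4 and 2180.7 CPM in wt NF, without overlap (−0.98 ± 0.35, adjusted p = 0.479). RpS15Ab, the minor copy of RpS15Aa, had −0.81 ± 0.28 (adjusted p = 0.460). RpS6, the substrate of S6 kinase, had 576.0, 575.6, 516.0 and 592.9 CPM in foxoRi NF, against 695.2, 635.2 and 972.3 CPM in wt NF. All 4 values were below the 3 of wt NF, although the fold change of −0.44 had an unadjusted p of 0.0552. The ubiquitin fusion genes RpS27A and RpL40 had −0.53 and −0.32.

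The values were not uniform. The sta gene had 1180.4, 837.2, 731.7 and 1099.3 CPM in foxoRi NF, against 1049.3, 1153.8 and 996.5 CPM in wt NF, and the groups overlapped (log2 fold change −0.15). RpS14b was the only gene above 0, at 0.18 ± 0.27, and was at 103.0 to 139.8 CPM in foxoRi NF and 105.6 to 115.1 CPM in wt NF. RpS5b and RpS19b, at a few counts, carry no usable fold change.

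RpS23, the reference gene of the study's RT-qPCR, was not called and had no exact p under 0.05 in the 12 comparisons of 2 groups. It had 441.3, 317.5, 269.7 and 278.6 CPM in foxoRi NF, against 464.3, 358.3 and 525.9 CPM in wt NF, and the groups overlapped. On the log2(CPM + 2) scale the difference was −0.47 (exact permutation test, 2-sided, p = 0.114, adjusted p = 0.80 over 12 comparisons). The edgeR fit gave RpS23 a log2 fold change of −0.46 there, with an unadjusted p of 0.0470 and an adjusted p of 0.540. The exact permutation p of 0.114 was the smallest of that test for RpS23 in the 12 comparisons. The smallest p that this permutation test allows is 0.0286 for 4 against 4 or 4 against 3 libraries and 0.0667 for 2 against 4.

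**Figure D3:**
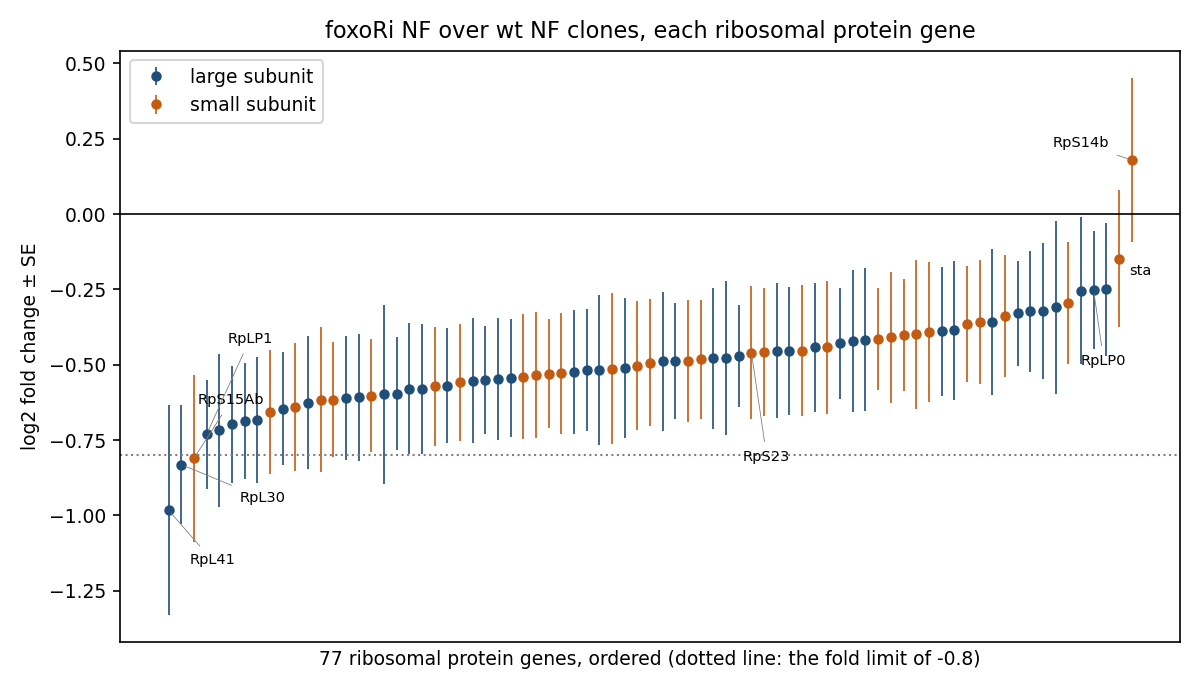
Log2 fold change of each ribosomal protein gene, foxoRi NF over wt NF, with its SE, ordered by size, large subunit in blue and small in orange. RpS5b and RpS19b, with few counts, are left out. Of the 77 genes drawn, RpS14b alone lies above 0, and RpL41, RpL30 and RpS15Ab lie beyond the dotted fold limit.

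Other genes of translation lay on the same side in their values. All 9 tested elongation and ribosome-bound factors were below 0 (median −0.44, 3 at an unadjusted p under 0.05), among them eEF2, the translocation factor, at −0.58 (adjusted p = 0.371). Nucleolar assembly factors had a median of −0.37 with 14 of 16 below 0, mitochondrial ribosomal proteins one of −0.13. Myc, an activator of ribosome biogenesis genes in flies, was at −1.07 (adjusted p = 0.364). None of these genes was called.

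The foxoRi NF and wt NF clones also differed in other markers. Photoreceptor and furrow markers summed to 336 to 1257 CPM in foxoRi NF, against 79.8 to 258 CPM in wt NF, without overlap, while eye progenitor markers were at 1180 to 2236 CPM and 1387 to 2023 CPM. All 8 photoreceptor and furrow markers were detected in both groups, and their part in the shift was not tested. The shift also rested on the choice of libraries. The unused wt NF replicate 4 had 15862.4 CPM for the large subunit, below all foxoRi NF libraries. With it alone added, the median of all members was −0.33 and 16 genes were lower at an unadjusted p under 0.05. With foxoRi NR replicate 3 alone added to the shared fit, these were −0.50 and 26, and with all 31 libraries −0.33 and 10, where 11 did not overlap. Without wt NF replicate 3, 18 genes were lower at that p.

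In the other 3 knockdown comparisons the medians were also below 0 but smaller. For Tsc1 foxoRi NR against Tsc1 NR they were −0.17 (large) and −0.21 (small), against 0.07 over all genes, and 71 of 79 were below 0. Of these genes 0 were called (background 0.873%), and 9 (3 large, 6 small) were lower at an unadjusted p under 0.05, where 6.28% of all genes passed. DESeq2 called none and had 4 at that p. The 9 were 2 and 3 without Tsc1 foxoRi NR replicate 3 or 4, 5 without Tsc1 NR replicate 1, and 21 and 18 without Tsc1 foxoRi NR replicate 1 or 2. RpL10Ab had the smallest adjusted p: 480.0, 728.0, 353.6 and 396.8 CPM in Tsc1 foxoRi NR, against 781.9, 710.5, 683.6 and 796.3 CPM in Tsc1 NR (−0.60 ± 0.21, adjusted p = 0.450). The groups overlapped by replicate 2 of Tsc1 foxoRi NR, and without it RpL10Ab was called, at −0.83 (adjusted p = 0.0576). Without replicate 1, RpL41 was called, at −1.01 (adjusted p = 0.0394).

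For Tsc1 foxoRi NF against Tsc1 NF the medians were −0.10 and −0.08, against 0.08 over all genes. With no gene called (background 0.0592%), RpS3A alone was lower at an unadjusted p under 0.05 (background 7.62%), and DESeq2 called none and had 1 at that p. For foxoRi NR against wt NR, with 2 libraries in foxoRi NR, both medians were −0.17, against −0.12 over all genes, close to each other. The test called 0 genes (background 0%), and 3 were lower at an unadjusted p under 0.05 (background 3.68%): RpL34a, RpLP1 and RpL29. In 21 of 79 (26.6%) both foxoRi NR libraries were below all wt NR libraries, against 5.89% of all genes. DESeq2 had 3 at that p and called none. With the unused foxoRi NR replicate 3 alone added, 7 genes were lower and 7 higher at that p, and RpS6 was called higher in foxoRi NR, at 1.04 (adjusted p = 0.127). The median of all tested genes was then −0.46. With all 31 libraries, 442 of 12024 tested genes were called in this comparison.

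The difference between the knockdown effects on normal food was also computed, after the medians had been seen. It is the effect in Tsc1 clones minus that in wt clones. Its medians were 0.45 for the large and 0.40 for the small subunit, 78 of 79 values were above 0, and none was called (background 0%). At an unadjusted p under 0.05, 9 genes were above 0 (background 8.07%), with RpL30 first (0.71 ± 0.27, adjusted p = 0.545), and DESeq2 had 8. It uses the same wt NF and foxoRi NF libraries as above, so its direction is no separate observation, and with all 31 libraries none passed that p.

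The pooled knockdown comparison averaged the 4 pairs, libraries labelled foxoRi at 30°C against clones without RNAi at 25°C. The medians were again below 0, at −0.22 (large) and −0.24 (small), against 0.01 over all genes, and 77 of 79 below 0. No fold change reached the limit, so none was called (background 0.902%). At an unadjusted p under 0.05, 41 genes (21 large, 20 small) were lower and none higher, where 10.8% of all genes passed and 5.32% were lower. Without the fold limit, a rule added after the values were seen, 13 of 79 (16.5%) were lower at an adjusted p under 0.2, against 1.06% of all genes. DESeq2 called none and had 22 lower at an adjusted p under 0.2 and 36 at an unadjusted p under 0.05. With all 31 libraries no gene passed an adjusted p of 0.2, and 18 were lower at an unadjusted p under 0.05. The count of 13 depended on single libraries. It was 1 with wt NF replicate 4 alone added and 2 with foxoRi NR replicate 3 alone added. It was 1 and 2 without foxoRi NR replicate 2 or 1, 5 without Tsc1 NR replicate 1 or wt NF replicate 3, and 6 to 8 without replicate 2 or 3 of foxoRi NF, 2 or 4 of Tsc1 foxoRi NF, 2 of Tsc1 NF, 4 of Tsc1 NR, or 1 or 3 of wt NR. It was 20 without replicate 1 of Tsc1 NF or of wt NF, 22 without replicate 1 of Tsc1 foxoRi NF, and 28 and 26 without replicate 1 or 2 of Tsc1 foxoRi NR.

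RpLP1 was the only ribosomal protein gene lower at an adjusted p under 0.05, at −0.50 ± 0.092 (adjusted p = 0.00526). Its level was 516.9, 464.5, 511.0 and 347.7 CPM in Tsc1 foxoRi NR, against 591.0, 699.5, 613.1 and 664.9 CPM in Tsc1 NR. It was 418.1 and 401.8 CPM in foxoRi NR, against 564.5, 479.8, 737.0 and 490.3 CPM in wt NR. In Tsc1 foxoRi NF it was 739.1, 559.3, 598.3 and 519.2 CPM, against 680.2, 682.4, 835.3 and 850.3 CPM in Tsc1 NF. The RpLP1 groups overlapped in the Tsc1 NF pair only, and the 4 pairs had log2 fold changes of −0.48, −0.47, −0.34 and, on normal food in wt, −0.73. The unused wt NF replicate 4 had 259.8 CPM. With it alone added RpLP1 was at −0.45 (adjusted p = 0.174), and with all 31 libraries at −0.43 (adjusted p = 0.221).

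The next genes were RpS25 (−0.39, adjusted p = 0.0852), RpL21 (−0.37, adjusted p = 0.0911), RpL30 (−0.37, adjusted p = 0.112) and RpL29 (−0.39, adjusted p = 0.1299). All 4 lost an adjusted p under 0.2 with both unused libraries or either alone added and without foxoRi NR replicate 2, and each also without foxoRi NR replicate 1 or Tsc1 NR replicate 1. RpS25 averaged 379 ± 54.0 CPM in foxoRi NF and 558 ± 119 CPM in wt NF (SD, n = 4 and 3). RpS27A, which is translated as a fusion with ubiquitin, had −0.38 (adjusted p = 0.141) and overlaps an exon of Ip259 on the same strand. RpL41 had −0.57 (adjusted p = 0.179). RpS3A, RpL10, RpS15Ab, RpS30 and RpS28b were also among the 13. Among the elongation and ribosome-bound factors, eEF2 (−0.38, adjusted p = 0.0524) and bic (−0.38, adjusted p = 0.140) were lower, and the nucleolar factor Nop17l was higher (0.46, adjusted p = 0.169).

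**Figure D4:**
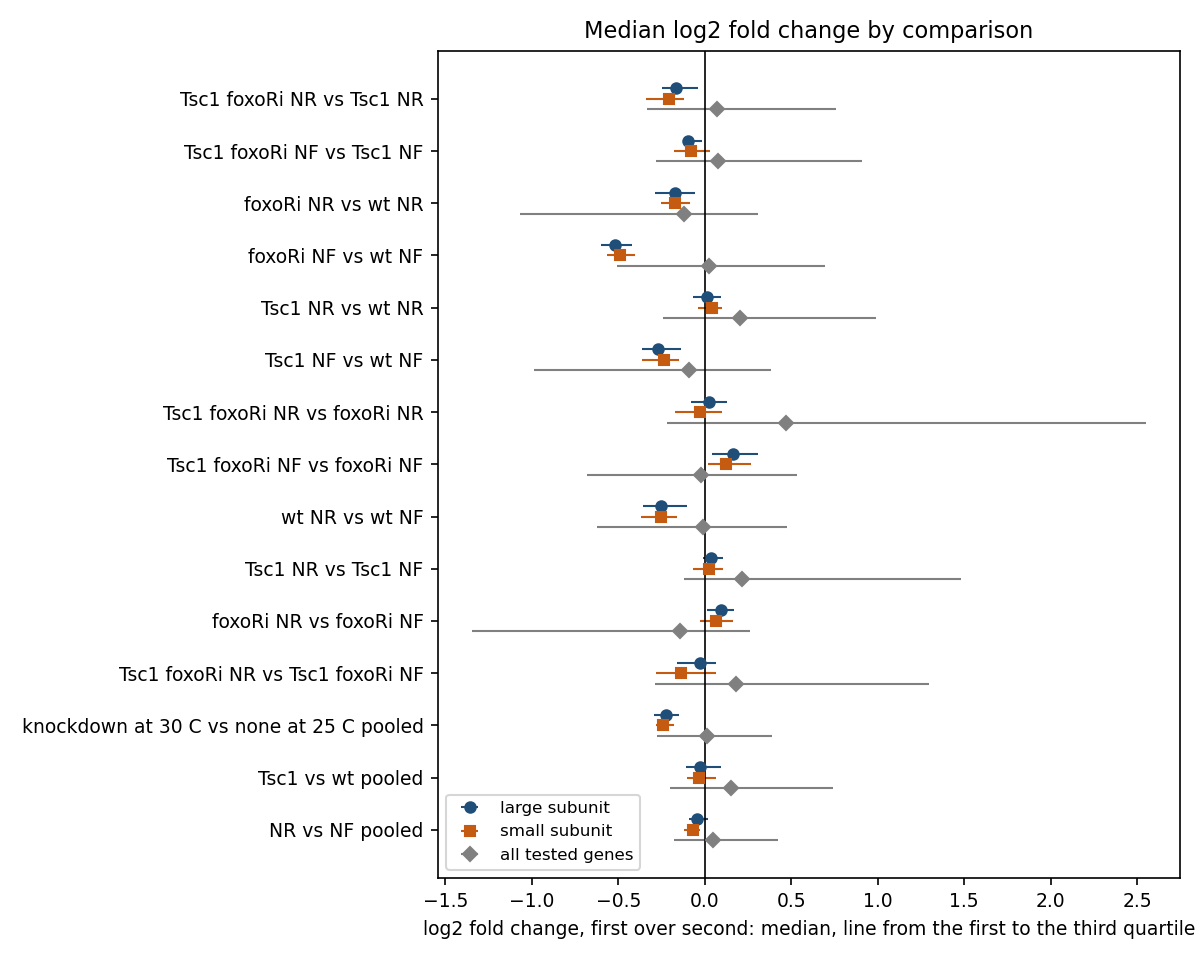
Median log2 fold change of the large subunit (blue), the small subunit (orange) and all tested genes (grey) in the 12 comparisons of 2 groups and the 3 pooled ones, with lines between the quartiles. The medians of both subunits lie close together in most comparisons, least so in Tsc1 foxoRi NR against Tsc1 foxoRi NF. They lie farthest from all genes in foxoRi NF against wt NF, at −0.52 and −0.49 beside 0.02.

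Of the small RNAs nested in these genes, many were called higher in Tsc1 foxoRi NR against Tsc1 NR, where no host was called. They were 25 of the 71 tested nested RNAs (35.2%), against 0.821% of all tested genes called higher, and had a median log2 fold change of 1.27. Among the 211 tested snoRNAs, scaRNAs and snRNAs that lie elsewhere, 54 (25.6%) were called higher, with a median of 1.22, and the difference between these lists was not tested. The 27 host genes had a median of −0.18 and none was called, and the 52 tested members without a nested RNA had a median of −0.17. In foxoRi NF against wt NF nested RNAs and hosts lay on the same side, with medians of −0.25 for the nested RNAs, −0.28 for the other small RNAs and −0.50 for the hosts.

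The comparisons of Tsc1 with wt clones asked what loss of Tsc1 did to the transcript levels of these genes. In the pooled comparison their medians lay near 0, while many other genes were called. The median was −0.03 for both subunits, against 0.15 over all genes, and none was called, although 7.51% of all tested genes were. At an unadjusted p under 0.05, 4 were higher and 2 lower (background 19.2%), and DESeq2 called none and had 7 at that p. Without the fold limit, 3 of 79 passed an adjusted p of 0.2, against 15.4% of all genes. Leaving out single libraries gave 1 (foxoRi NR replicate 1 or 2) to 10 (Tsc1 foxoRi NR replicate 2), and 5 without Tsc1 NF replicate 4 or replicate 1 of Tsc1 foxoRi NR, foxoRi NF or wt NF.

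These 3 were RpL34a, higher at 0.53 ± 0.15 (adjusted p = 0.0328), RpS21, higher at 0.29 ± 0.10 (adjusted p = 0.106), and RpS30, lower at −0.30 ± 0.11 (adjusted p = 0.0910). RpL34a (chr3R:26058420-26059267) had 69.7, 78.9, 48.5 and 51.5 CPM in Tsc1 foxoRi NR, against 38.4 and 29.2 CPM in foxoRi NR. On normal food it had 102.9, 55.5, 57.6 and 49.8 CPM in Tsc1 foxoRi NF, against 46.6, 28.2, 47.5 and 38.8 CPM in foxoRi NF. Neither of these pairs of groups overlapped. Without RNAi the RpL34a groups overlapped, with 79.2, 64.0, 81.3 and 73.9 CPM in Tsc1 NR against 66.8, 46.5, 93.9 and 38.5 CPM in wt NR, and 75.9, 64.9, 88.0 and 59.6 CPM in Tsc1 NF against 48.1, 49.5 and 85.3 CPM in wt NF.

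The paralog RpL34b had a pooled fold change of −0.20 (adjusted p = 0.384), so that the share of RpL34a in the pair differed. It was 20.6 ± 4.57% in Tsc1 foxoRi NR and 11.5 ± 1.98% in foxoRi NR, 23.7 ± 1.85% in Tsc1 NR and 17.5 ± 4.81% in wt NR. On normal food it was 23.4 ± 4.77% in Tsc1 foxoRi NF and 14.6 ± 3.51% in foxoRi NF, and 25.9 ± 8.49% in Tsc1 NF and 17.4 ± 4.597% in wt NF (SD, n = 2 to 4). The share was not tested, and the counts of each copy were not whole in 4 of the 31 libraries. RpL34a no longer passed an adjusted p of 0.2 with all 31 libraries or without foxoRi NR replicate 2, where its adjusted p was at most 0.219, or with foxoRi NR replicate 3 alone added (adjusted p = 0.242). In the same pooled comparison, RpS30 did not pass with all 31 libraries, with wt NF replicate 4 alone added (adjusted p = 0.299) or without foxoRi NR replicate 1. RpS21 did not pass without Tsc1 NR replicate 2, Tsc1 foxoRi NR replicate 1 or either foxoRi NR library, or with no filter.

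Several other genes of ribosome production were higher in Tsc1 clones. The difference between the lists was not tested. Of the 71 mitochondrial ribosomal proteins, which belong to the separate ribosome of the mitochondria, 70 were above 0 in the pooled comparison, with a median of 0.55. The test called 11 of them higher (background 5.65% higher), and 26 were higher at an adjusted p under 0.2 without the fold limit (background 10.1%). The smallest p were those of mRpL32 (1.54, adjusted p = 0.00238), mRpS30 (0.79, adjusted p = 0.00801) and mRpL51 (0.92, adjusted p = 0.0258).

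Of the 16 nucleolar assembly factors, 6 were higher and 1 lower at an adjusted p under 0.2, with a median of 0.35. Surf6 was called higher (0.83, adjusted p = 0.00972), Non1, a GTPase of large subunit assembly, was called lower (−0.82, adjusted p = 0.000174), and Nop17l was higher (0.53, adjusted p = 0.0224). Of the 9 elongation and ribosome-bound factors, eEF1delta was higher (0.42, adjusted p = 0.0709) and pAbp lower (−0.26, adjusted p = 0.190), beside the same background of 15.4%. Among 10 regulators, Thor, an inhibitor of cap-dependent translation and a FoxO target, was called higher (3.68, adjusted p = 0.0389). Xrp1, a transcription factor that acts in cells with too little ribosomal protein, was higher at 0.61 (adjusted p = 0.00309), and larp, the fly Larp1, at 0.32 (adjusted p = 0.0514). Myc, named after its values were seen, was lower at −0.48 (adjusted p = 0.0713).

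**Figure D5:**
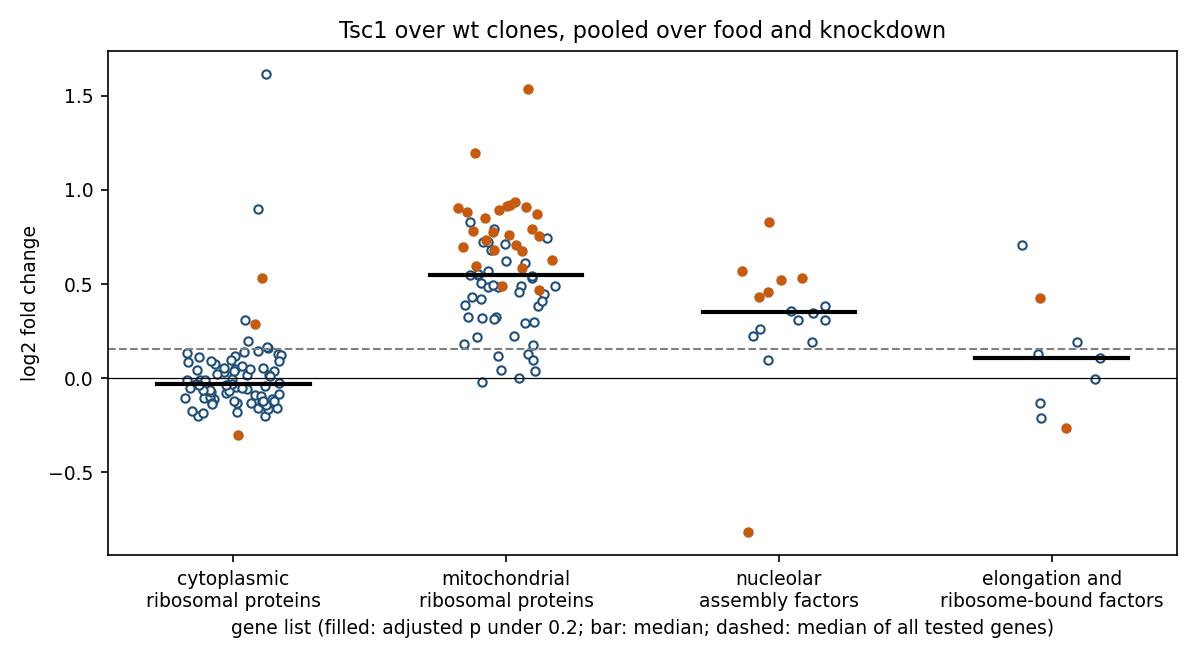
Log2 fold change of each gene in the pooled comparison of Tsc1 with wt, for cytoplasmic ribosomal proteins, mitochondrial ribosomal proteins, nucleolar assembly factors, and elongation and ribosome-bound factors. Filled points have an adjusted p under 0.2, bars are medians and the dashed line is the median of all tested genes, 0.15. The cytoplasmic ribosomal proteins cluster near −0.03, and the mitochondrial ones spread around 0.55.

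Of the 4 single comparisons, the medians of the family lay below that of all genes in 3 and above it in 1. For Tsc1 NR against wt NR the medians were 0.01 and 0.04, against 0.20 over all genes. With none called (background 0.665%), only RpS5b, with few counts, was higher at an unadjusted p under 0.05 (background 8.39%). For Tsc1 NF against wt NF they were −0.27 and −0.24, against −0.09. Again none was called (background 1.21%), and 7 were lower at an unadjusted p under 0.05 (background 10.7%), with RpL37A first (−0.50 ± 0.17, adjusted p = 0.323). In 15 of 79 (19.0%) every Tsc1 NF library was below every wt NF library used, against 4.15% of all genes. With all 31 libraries this held for 2 of 79. With wt NF replicate 4 alone added the median was −0.03 and 1 gene was lower at that p. DESeq2 called none in either, with 1 and 8 genes at that p.

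In clones labelled foxoRi, the medians of Tsc1 foxoRi NR against foxoRi NR were 0.02 and −0.03, against 0.47 over all genes. The test called none (background 1.18%), and RpL34a was above 0 (0.88 ± 0.35) and RpS30 below 0 (−0.59 ± 0.24) at an unadjusted p under 0.05 (background 13%). DESeq2 had 3 genes at that p and called RpL34a, at 0.92 (adjusted p = 0.147). With foxoRi NR replicate 3 alone added 9 ribosomal protein genes were called, 2 of them higher (RpL34a and RpL38) and 7 lower. RpS6 came first (−1.32, adjusted p = 0.0266), and the median of all genes was 0.66. With all 31 libraries, 1813 of 12024 tested genes were called in this comparison. With wt NF replicate 4 alone added no ribosomal protein gene was called. For Tsc1 foxoRi NF against foxoRi NF the medians were 0.16 and 0.12, against −0.02. Here too none was called (background 0.791%), and 8 were higher at an unadjusted p under 0.05 (background 11.1%). In 7 of 79 (8.86%) every Tsc1 foxoRi NF library was above every foxoRi NF library, against 3.24% of all genes. RpS21 came first, with 417.2, 425.1, 335.7 and 392.4 CPM in Tsc1 foxoRi NF, against 302.1, 218.4, 240.6 and 277.9 CPM in foxoRi NF (0.60 ± 0.19, adjusted p = 0.279). DESeq2 called none there and had 7 at that p.

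The comparisons of NR with NF asked whether scarce food lowered these transcripts. No ribosomal protein gene was called in them. Pooled over the 4 genotypes, the medians were −0.04 and −0.07, against 0.05 over all genes, none was called (background 0.104%), and only RpLP1 was lower at an unadjusted p under 0.05 (background 6.91%), at −0.29 ± 0.092 (adjusted p = 0.366). DESeq2 called none and had 4 at that p. The age at dissection differed with the food, and food and age cannot be told apart.

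In wt clones the medians were −0.26 and −0.25 for NR against NF, against −0.01 over all genes. With 0 called (background 0%), 8 were lower at an unadjusted p under 0.05 (background 5.33%), among them RpL35A (−0.53 ± 0.22, adjusted p = 0.868). DESeq2 called none and had 10. In 8 of 79 (10.1%) every wt NR library was below every wt NF library used, against 2.24% of all genes. With wt NF replicate 4 alone added the median was −0.09 and 2 were lower at that p. In Tsc1 clones the medians were 0.04 and 0.02, against 0.22, with none called (background 0.0444%) and none at an unadjusted p under 0.05 (background 9.04%), also by DESeq2. In clones labelled foxoRi they were 0.09 and 0.06, against −0.14, with none called (background 0%) and RpL5 alone higher at an unadjusted p under 0.05 (0.43 ± 0.20, background 3.87%), where DESeq2 had 0. In 13 of 79 (16.5%) both foxoRi NR libraries were above all foxoRi NF libraries, against 5.67% of all genes. With foxoRi NR replicate 3 alone added 20 were higher at that p and 6 were called higher, with RpS6 first (1.19, adjusted p = 0.0686). The median of all genes was then −0.51. With all 31 libraries, 450 of 12024 tested genes were called in this comparison. In Tsc1 clones labelled foxoRi the subunit medians were −0.03 and −0.14, against 0.18. No ribosomal protein gene was called (background 1.55%), and 2 were lower at an unadjusted p under 0.05 (background 11.1%): RpL10Ab (−0.51) and RpLP1 (−0.39). DESeq2 called none and had 3 there. These comparisons share groups with those of knockdown and of Tsc1, and are given as separate readings of the same libraries.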

How the data were processed

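RNA of 31 laser-dissected single clones was sequenced. Per the labels, the authors used the Ovation SoLo kit, Trimmomatic, STAR on BDGP6 and featureCounts (versions not given in the sources used here), and deposited estimated counts without normalization, of which 17.1% are not whole. Counts were rounded to whole numbers. Names and coordinates came from BDGP6.54, which matched 17253 of 17559 genes. The main fit used 29 libraries: the study used that number, and the 2 left out have the fewest detected genes.

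Groups were tested with edgeR 4.0.16 (R 4.3.3): TMM, filterByExpr, 1 quasi-likelihood fit of the 8 groups, Benjamini-Hochberg adjustment over all 13524 tested genes. SE is the absolute log2 fold change over the square root of F. CPM are counts over the TMM-scaled library size, and single genes used log2(CPM + 2). Pooled comparisons average the 4 matched differences. RpS23 and foxo were compared by exact permutation. DESeq2 1.42.0, its size factors, no filter, protein-coding genes alone, the number of detected genes as covariate, the replicate block, all 31 libraries, each unused library added alone and each library left out were alternatives. The test was checked on simulated data for Tsc1 foxoRi NR against Tsc1 NR. It called 6 of 102 genes changed by a log2 fold of 1 and 57 of 98 changed by 2. Of 10811 unchanged genes it called 12. The simulated counts had 1 dispersion for all genes, lower than the common value of the data (biological coefficient of variation 0.858). The ribosomal protein genes had a median within-group SD of log2 CPM of 0.252, against 0.436 over all tested genes. The shares called in the simulation therefore do not give the power for this family. A gene that was not called may still have changed.

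The members and lists were chosen with earlier results of these data known. Genes named were those called, at most 5 in each direction, the stalk, ubiquitin fusion and paralog genes, RpS6, RpS23, sta and RpL41, the 5 highest and 5 lowest per length, the 3 of largest spread, and at most 3 per other list. Others were named for their p-values after these were seen. The list genes eEF1alpha1, eEF5, S6k, RACK1 and Tor were not matched. Sequences were not used here. A few single-gene values are not reported here.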

Additional observations from a re-analysis of the deposited data

Results flagged for a closer look

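In 5 of 114 groups of 4 libraries checked (the members named above), 1 library stood apart from the other 3 by more than Dixon's limit, where chance gives about 1 in 20. RpL41 was at 3368 CPM in Tsc1 foxoRi NR replicate 1, against 718.8 to 949.1 CPM in the other 3 libraries, and this library also had the highest share of mitochondrially encoded mRNA, 12.1% of its protein-coding counts. RpL34a was at 102.9 CPM in Tsc1 foxoRi NF replicate 1, against 49.81 to 57.63 CPM. RpS25 was at 532.7 CPM in Tsc1 NR replicate 2, against 475.1 to 484.9 CPM, and at 583.1 CPM in wt NR replicate 3, against 446 to 461.9 CPM. RpL29 was at 438.2 CPM in wt NR replicate 3, against 358 to 361.3 CPM, and wt NR replicate 3 also had the highest summed level of its group, 48934.6 CPM. The causes were not tested.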

How the results depend on the processing

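The pooled knockdown fold changes of RpLP1, RpS25, RpL21, RpL30 and RpL29 kept their sign under 38 alternatives. So did those of RpL34a, RpS30 and RpS21 in Tsc1 against wt pooled. The signs of the other named fold changes under the alternatives are not given here. Of 32 subunit medians, 13 changed sign in at least 1 alternative, and these were at most 0.17 from 0 as reported. Using all 31 libraries moved many values: 1 ribosomal protein gene was called in foxoRi NR against wt NR, 9 in Tsc1 foxoRi NR against foxoRi NR and 1 in foxoRi NR against foxoRi NF. Of all 12024 genes tested in that fit, 442, 1813 and 450 were called in these comparisons. With all 31 libraries the large subunit median was −0.33 in foxoRi NF against wt NF, −0.065 in Tsc1 NF against wt NF, −0.22 in Tsc1 foxoRi NR against foxoRi NR and −0.068 in wt NR against wt NF. The small subunit median was 0.050 in foxoRi NR against wt NR, −0.24 in Tsc1 foxoRi NR against foxoRi NR and 0.25 in foxoRi NR against foxoRi NF. Each unused library was also added alone, chosen after seeing the data. With foxoRi NR replicate 3 the calls among ribosomal protein genes numbered 1, 9 and 6, and the calls over all genes are not given for that fit. The small subunit median was 0.051, −0.24 and 0.25 in the same 3 comparisons (large −0.22 in Tsc1 foxoRi NR against foxoRi NR). With wt NF replicate 4 none was called, and the large subunit median was −0.33 in foxoRi NF against wt NF, −0.031 in Tsc1 NF against wt NF (small −0.040) and −0.059 in wt NR against wt NF. RpL30 alone was called in foxoRi NF against wt NF with the number of detected genes as covariate (1 gene) and over protein-coding genes only (1 gene). DESeq2 called 1 gene in Tsc1 foxoRi NR against foxoRi NR, and with no filter 1 gene, RpL37-2, was called in Tsc1 against wt pooled. The causes were not tested.

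Leaving out single libraries gave 0 to 1 called genes in Tsc1 foxoRi NR against Tsc1 NR and in Tsc1 against wt pooled (RpS19b or RpS5b, both at few counts), 0 to 2 in foxoRi NF against wt NF, and a large subunit median of −0.20 to 0.055 in Tsc1 foxoRi NR against Tsc1 foxoRi NF. In the pooled knockdown comparison the genes at an adjusted p under 0.2 without the fold limit numbered 0 to 28 over 38 alternatives. RpLP1 was at −0.54 to −0.43 there and under that p in 37 of 38.

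Same-numbered libraries had correlations of −0.28 to 0.50 in their deviations from the group means. Differently numbered libraries were not compared, so this does not settle whether the numbers pair them. The main fit treated the libraries as unpaired. With the replicate number as a block, 0 genes were called in each comparison, and the large subunit median in foxoRi NF against wt NF was −0.49. The number of single clones per group limits how small a change can be called.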

Other observations

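The level of some ribosomal protein mRNAs went with the share of mitochondrially encoded mRNA in a library. Over the 29 libraries, log2(CPM + 2) of RpL41 had a Pearson r of 0.709 and a Spearman rho of 0.602 with that share, and r = 0.535 without the 2 libraries farthest from the median share. RpL38 had r = 0.843 (rho 0.657, r = 0.604 without those 2) and RpL39 r = 0.602 (rho 0.510, r = 0.442), while RpS14a had r = 0.001. The genes were picked after their values were seen, the libraries share 8 groups, and the values are descriptions.

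The 2 libraries not used differed from each other in these genes. The wt NF replicate 4 had 15862.4 CPM for the large and 12064.7 CPM for the small subunit, the lowest large subunit sum of the series, and foxoRi NR replicate 3 had 29248.7 and 25480.1 CPM. RpL30 had 4 counts in foxoRi NR replicate 3.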
